A study of Mus musculus with 4 samples.

Results

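The mitochondrial genome encodes core subunits of the respiratory chain, and 10 of its protein-coding genes were followed in mouse embryonic stem cells (mESCs) with and without Npac. The genes were taken by name from the deposited tables, which list 56748 genes, and all 10 were found: mt-Nd1, mt-Nd2, mt-Nd4, mt-Nd5, mt-Nd6, mt-Co1, mt-Co2, mt-Co3, mt-Cytb and mt-Atp6. RNA-seq was performed on 4 libraries of E14 mESCs, a widely used line derived from a mouse blastocyst. Both groups share this parental line and were grown without feeder cells on gelatin, in medium with serum and leukemia inhibitory factor (LIF). The WT group (WT1, WT2) holds wild-type E14 cells, and the Npac KO group (KO1, KO2) holds E14 cells in which Npac, listed as Glyr1, was targeted with CRISPR/Cas9 and colonies were picked after puromycin selection. KO1 and KO2 are each a single library, and neither the labels nor the methods say whether the WT libraries were separate cultures or went through the same selection, so p-values measure the spread between these libraries and clonal differences cannot be told apart from the loss of Npac.

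Mitochondrial DNA is a small circular genome that is transcribed inside the organelle by its own polymerase, Polrmt, with the factors Tfam and Tfb2m. Both strands are read as long precursors, and the tRNAs that lie between the coding regions are cut out to release the mRNAs and rRNAs. The encoded proteins are core subunits of the respiratory chain: the mt-Nd proteins of complex I (NADH dehydrogenase), mt-Cytb of complex III, mt-Co1, mt-Co2 and mt-Co3 of complex IV (cytochrome c oxidase), and mt-Atp6 of the ATP synthase. mt-Atp8, another gene of this genome, encodes a further subunit of the ATP synthase. All other subunits, and all the proteins that copy, transcribe and translate this genome, come from nuclear genes. Embryonic stem cells rely strongly on glycolysis and are known for small, immature mitochondria, with respiration rising as they differentiate.

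The libraries held between 15850805 and 16965120 counted reads, and 18157 genes passed the filter on low counts, all 10 mitochondrial members among them. Glyr1 stood at 259 and 178 CPM (the read count scaled to library size) in WT1 and WT2 and at 47.8 and 51.2 CPM in KO1 and KO2, a log2 fold change of -2.14 (SE 0.23, adjusted p = 0.00174, edgeR quasi-likelihood test). All 12 mESC markers were detected. Their summed level was 7036 to 8132 CPM in WT and 5778 to 5792 CPM in KO. It was lower in KO without overlap, and the part of this in the results was not tested. The 9 fibroblast markers summed to only 36.8 to 66.9 CPM, and 3 of them had no read. The endoderm markers summed to 11.4 to 22 CPM and the neural markers to 96.2 to 114 CPM, with overlap of WT and KO in both. The mesoderm and trophoblast markers summed to 28.9 and 51.7 CPM in WT and to 55.5 and 61.7 CPM in KO, without overlap, and their part in the results was not tested. Here the CPM of single genes is scaled with edgeR's TMM factors, and the marker sums are scaled to the total count only. A gene was called where its change exceeded 1.5-fold and its adjusted p (Benjamini-Hochberg, over all genes tested) was below 0.05.

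Before the values, the sequences show which of these genes a single short read can identify. A stretch of nuclear DNA on chromosome 1 carries a copy of part of the mitochondrial genome, annotated as 7 pseudogenes on the minus strand within 4663 bases (GRCm38, chr1:24611535-24616197), and 5 of the 7 match a member. Over the aligned length the copy of mt-Co2 (Gm28661, 681 bases), that of mt-Co3 (Gm28437, 783 bases), that of mt-Atp6 (Gm10925, 678 bases) and that of mt-Nd4 (Gm28439, 876 bases) were identical to the mitochondrial gene. The copy of mt-Co1 (Gm29216) covers its last 483 bases at an identity of 99.79%. The first 61 bases of the 3 fully copied genes are shown because the mitochondrial and the nuclear gene read alike in each. These and the other sequences are GENCODE M21 transcripts, written 5′ to 3′.
mt-Co2 and Gm28661: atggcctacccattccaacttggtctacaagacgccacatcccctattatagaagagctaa
mt-Co3 and Gm28437: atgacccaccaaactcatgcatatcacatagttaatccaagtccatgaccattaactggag
mt-Atp6 and Gm10925: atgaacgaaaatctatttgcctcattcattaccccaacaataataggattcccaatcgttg

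In the copy of mt-Co1 the only difference is A1066T, counted from 1 at the first base of mt-Co1, and it is shown in capitals in bases 1063 to 1123. A read from the copied part of mt-Co1 that does not cover this base matches both genes.
mt-Co1: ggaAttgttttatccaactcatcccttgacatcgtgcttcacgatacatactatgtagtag
Gm29216: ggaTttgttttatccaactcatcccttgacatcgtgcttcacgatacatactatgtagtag

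Of all 150-base windows of each gene, 150 bases being the read length, 99.84% of those of mt-Co3, 99.44% of those of mt-Co2 and 99.44% of those of mt-Atp6 occurred letter for letter in the transcript of another gene. The share was 59.15% for mt-Nd4 and 23.64% for mt-Co1, and it was 0 for mt-Nd1, mt-Nd2, mt-Nd5, mt-Nd6 and mt-Cytb. Among the members, the deposited levels were split in the same way. In FPKM, which divides by gene length and so allows genes to be compared, the 3 members with nearly all windows shared lay between 20 and 93.3 in every library, and the 7 others between 382 and 8788. Outside the members, mt-Nd3 and mt-Nd4l, with 96.98% and 97.97% of windows shared, had 2.43 to 9.95 and 3.06 to 12.95 FPKM. mt-Atp8, with a shared part of 0%, had 0.956 to 2.51 FPKM, the lowest of the coding genes. Only annotated transcripts were searched, and mt-Atp8 starts between mt-Co2 and mt-Atp6, whose copies are neighbours on chromosome 1. The stretch between these copies was not searched, so the 0% of mt-Atp8 is uncertain. The windows stand for single reads, while the libraries hold read pairs, and mates outside the shared part were not looked for. How the authors' counting treated reads with several matches is not given in the sources used here, so the values of mt-Co2, mt-Co3 and mt-Atp6 are uncertain. The same holds to a lesser degree for mt-Nd4 and mt-Co1, and the part of such reads was not tested.

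**Figure D1:**
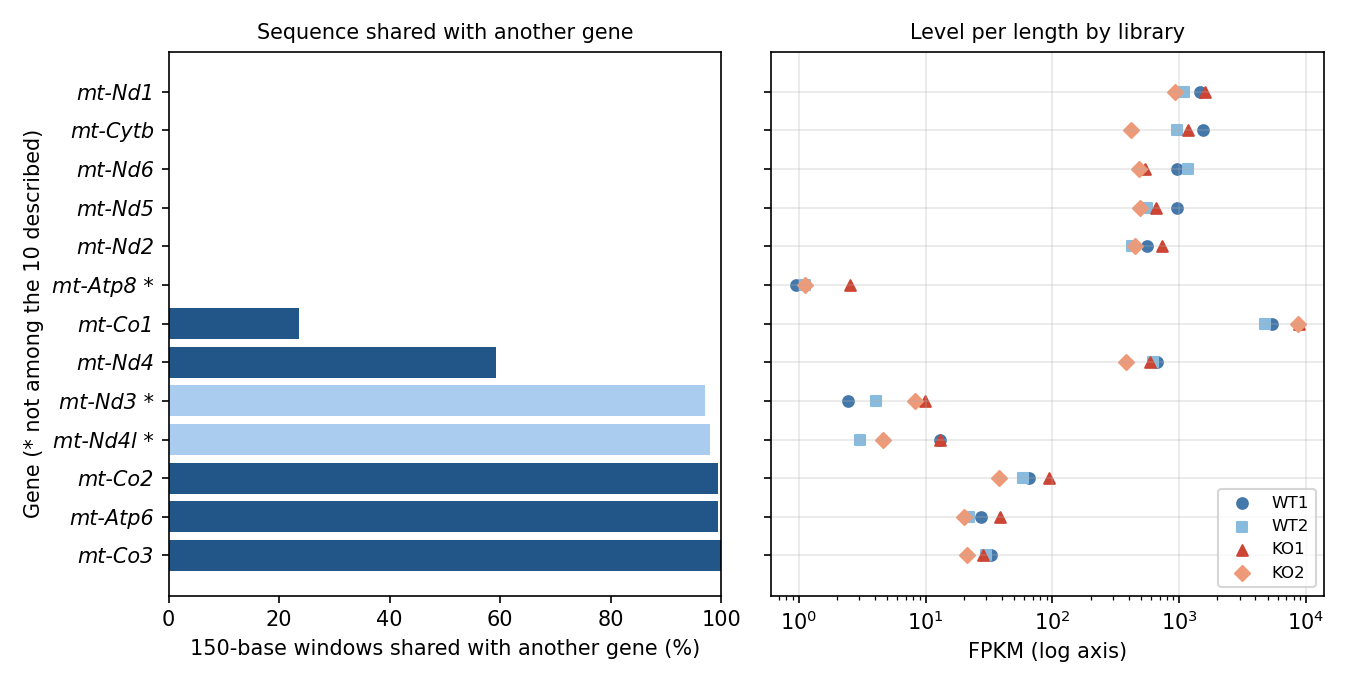
Share of 150-base windows (bars) of each mitochondrial protein-coding gene that occur in another annotated transcript, beside the deposited FPKM of each library on a log axis. mt-Co2, mt-Co3 and mt-Atp6, with nearly all windows shared, are at 20 to 93.3 FPKM, and the other 7 members are at 382 to 8788 FPKM.

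The comparison of KO with WT asks how loss of Npac goes along with the RNA of the mitochondrial genome. mt-Co1 was higher in KO and mt-Nd6 was lower, and the other 8 members did not pass the test. Thus 1 of 10 members was called higher where 11% of all genes tested were, and 1 of 10 was called lower where 10.7% were, so the number of calls is near that of any gene. The median log2 fold change of the 10 members was -0.18, beside 0.0015 over all genes tested. These are bulk libraries, in which fewer mitochondria per cell, fewer transcripts per mitochondrion and a change in the rest of the RNA cannot be told apart.

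**Figure D2:**
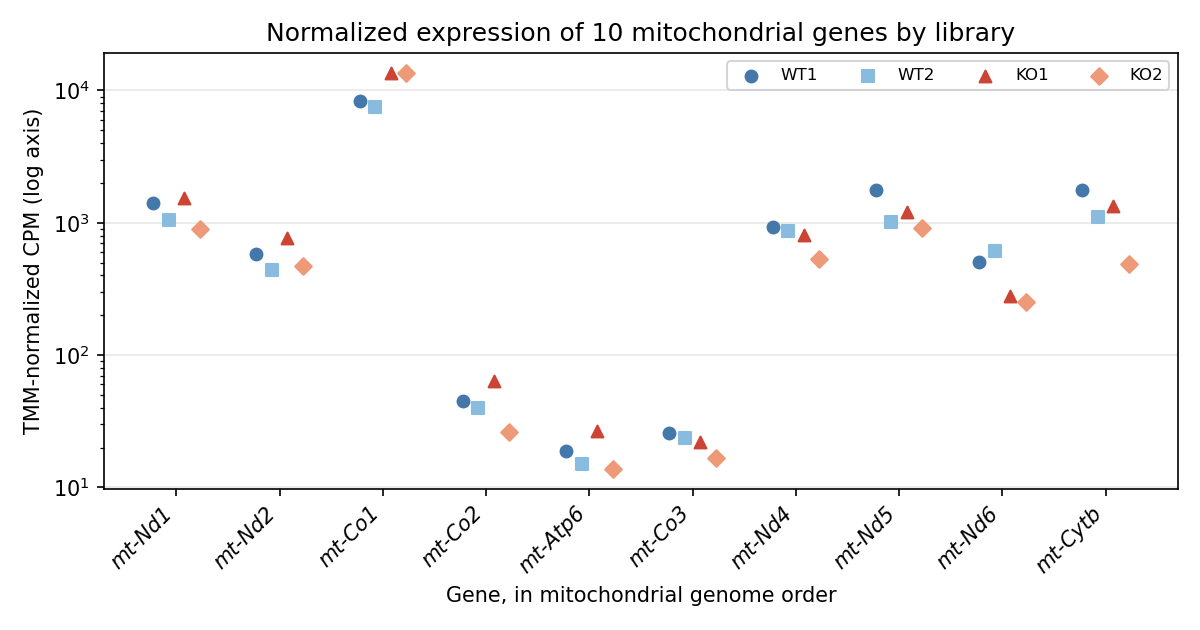
TMM-scaled CPM of the 10 members on a log axis, 1 point per library, with the genes in their order along the genome. The KO libraries lie above the WT libraries for mt-Co1 and below them for mt-Nd4, mt-Nd6 and mt-Co3, and the groups overlap for the other 6.

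mt-Co1 (ENSMUSG00000064351, chrMT:5328-6872, plus strand), which encodes the catalytic subunit of cytochrome c oxidase, stood at 8348 and 7439 CPM in WT1 and WT2 and at 13601 and 13560 CPM in KO1 and KO2. The KO levels were higher without overlap, and the KO pair lay closer together than the WT pair. The group means were 7893 ± 643 in WT and 13580 ± 29.5 in KO (SD, n = 2 each), a 1.72-fold difference with a log2 fold change of 0.78 (SE 0.21, edgeR adjusted p = 0.0362). In raw reads these were 127735, 130214, 211807 and 235126 reads, so counting error is small beside the spread between libraries. The call was lost when any 1 library was left out, with adjusted p from 0.103 to 0.158 and a log2 fold change of 0.70 to 0.84. Taking the reads of Gm29216 together with those of mt-Co1 left the log2 fold change at 0.78, since the copy held 158 and 240 reads in WT and 288 and 343 in KO.

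mt-Nd6 (ENSMUSG00000064368, chrMT:13552-14070, minus strand), a membrane subunit of complex I, stood at 504 and 609 CPM in WT1 and WT2 and at 279 and 252 CPM in KO1 and KO2. The KO levels were lower without overlap. The means were 556 ± 74.1 in WT and 266 ± 18.7 in KO (SD, n = 2 each), and the log2 fold change was -1.07 (SE 0.19, edgeR adjusted p = 0.0099). The call was lost without KO1 (adjusted p = 0.0567) and without KO2 (adjusted p = 0.0957), and it held with WT1 or WT2 left out. Where a library is left out, the remaining one of its group is assumed to vary like the other group.

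mt-Nd6 is the only member on the minus strand, and its base composition is the reverse of that of the others. Read as RNA, it held 28.1% G and 6.0% C, whereas the 9 members on the plus strand held 8.0 to 16.1% G and 23.8 to 27.7% C. Its last 14 bases overlap the last 14 bases of mt-Nd5 on the other strand, shown here in capitals within the last 40 bases of each gene.
mt-Nd5: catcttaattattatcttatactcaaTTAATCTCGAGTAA
mt-Nd6: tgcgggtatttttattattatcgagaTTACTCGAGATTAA
Whether counting used the strand of the read is not given in the sources used here, so reads of mt-Nd6 and of the opposite strand at the same place cannot be told apart.

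The other complex I members did not pass the test. mt-Nd4 (chrMT:10167-11544), one of the proton-pumping membrane subunits, stood at 921 and 869 CPM in WT and at 813 and 534 CPM in KO. KO lay below WT without overlap, but KO1 was close to WT2, and the log2 fold change was -0.41 (SE 0.24, edgeR adjusted p = 0.245). mt-Nd5 (chrMT:11742-13565), the largest of the pumping subunits, stood at 1762 and 1022 CPM in WT and at 1209 and 912 CPM in KO. The groups overlapped, WT1 standing above the other 3 libraries, and the log2 fold change was -0.39 (SE 0.29, edgeR adjusted p = 0.361).

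mt-Nd1 (chrMT:2751-3707), which helps form the quinone-binding site, stood at 1405 and 1056 CPM in WT and at 1546 and 901 CPM in KO. The KO libraries enclosed the WT libraries, and the log2 fold change was -0.01 (SE 0.29, edgeR adjusted p = 0.987). mt-Nd2 (chrMT:3914-4951), another pumping subunit, stood at 578 and 443 CPM in WT and at 761 and 472 CPM in KO. KO1 was the highest library and KO2 lay between the WT libraries, with a log2 fold change of 0.27 (SE 0.27, edgeR adjusted p = 0.498).

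mt-Cytb (chrMT:14145-15288), the only complex III subunit of this genome, differed most between the KO libraries among all members. It stood at 1766 and 1099 CPM in WT and at 1339 and 489 CPM in KO. KO1 fell between the WT libraries and KO2 was the lowest of the 4, with a log2 fold change of -0.65 (SE 0.44, edgeR adjusted p = 0.323) over both KO libraries. With other libraries or another filter it passed, namely without KO1 (-1.56, adjusted p = 0.0216), without WT2 (-0.95, adjusted p = 0.032) and with no filter on low counts (-0.64, adjusted p = 0.012).

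Of the remaining complex IV members, mt-Co2 (chrMT:7013-7696), which takes up electrons from cytochrome c, stood at 44.7 and 40.1 CPM in WT and at 63.9 and 26.2 CPM in KO, so KO1 was the highest and KO2 the lowest library. The log2 fold change was 0.09 (SE 0.37, edgeR adjusted p = 0.889), and -0.13 when the reads of its nuclear copy were added. mt-Co3 (chrMT:8607-9390), the third core subunit, stood at 25.8 and 23.5 CPM in WT and at 22.2 and 16.8 CPM in KO. KO lay just below WT without overlap, with a log2 fold change of -0.34 (SE 0.24, edgeR adjusted p = 0.339).

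mt-Atp6 (chrMT:7927-8607), which forms the proton path of the ATP synthase, stood at 18.8 and 15.1 CPM in WT and at 26.6 and 13.8 CPM in KO. The KO libraries enclosed the WT libraries, with a log2 fold change of 0.25 (SE 0.34, edgeR adjusted p = 0.626). With its copy added, the log2 fold changes of mt-Atp6, mt-Co3 and mt-Nd4 were 0.32, -0.37 and -0.41. Across the 10 members, 1 lay above WT in both KO libraries (33.2% of all genes did) and 3 lay below (32.5% of all genes did), so lying outside the WT range is common in these data and sets no member apart.

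The 2 KO lines were also set against WT 1 at a time, in a fit with 3 groups whose spread comes from the WT pair, so these values describe the libraries. For mt-Co1 the lines gave nearly the same value, a log2 fold change of 0.79 in KO1 (edgeR adjusted p = 0.126) and 0.78 in KO2 (adjusted p = 0.142). For mt-Nd6 they gave -0.997 in KO1 (edgeR adjusted p = 0.0956) and -1.14 in KO2 (adjusted p = 0.0742). No member (0 of 10) was called in KO1, where 7.17% of all genes were. In KO2 1 of 10 was called, where 5.44% of all genes were, and it was mt-Cytb at -1.55 (edgeR adjusted p = 0.0391), beside -0.10 in KO1 (adjusted p = 0.904). Each line is 1 library here, so these counts are not read as a difference between the lines. Both comparisons share the WT libraries.

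KO1 against KO2 sets 1 library against 1, so no calls are read from it and likeness of the lines cannot be judged by them. Among the members, the largest log2 differences of KO1 over KO2 were 1.45 for mt-Cytb and 1.28 for mt-Co2. The members did differ together between libraries of the same genotype. Every member was higher in KO1 than in KO2, and 9 of 10 were higher in WT1 than in WT2, mt-Nd6 being the exception, whereas 49.3% and 49.1% of all genes tested were. The ratio of WT1 to WT2 was 1.12 for mt-Co1, 1.61 for mt-Cytb and 1.72 for mt-Nd5. The ratio of KO1 to KO2 was 1.00 for mt-Co1, 2.74 for mt-Cytb and 1.33 for mt-Nd5. The members come from shared precursors and from 1 library each, so they are not independent observations of this.

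Summed, the 10 members took 1.48% and 1.33% of all reads in WT1 and WT2 and 1.89% and 1.76% in KO1 and KO2. The groups did not overlap, with means of 1.41% ± 0.107 and 1.82% ± 0.0921 (SD, n = 2 each) and a ratio of 1.29. A two-sided exact permutation test gave p = 0.333, the smallest that 2 against 2 libraries allow. The sum of counted reads was dominated by mt-Co1. Without it, a division made after the data were seen, the other 9 members took 0.678% and 0.547% in WT and 0.581% and 0.370% in KO, a ratio of 0.776 with overlap of the groups (exact permutation p = 0.667). All 37 genes listed for the mitochondrial genome together took 1.54% and 1.41% in WT and 1.91% and 1.79% in KO.

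Within the mitochondrial reads, the balance moved towards mt-Co1. Its share of all member reads was 54.3% and 59.0% in WT and 69.2% and 78.9% in KO. The share of mt-Nd6 was 3.28% and 4.83% in WT and 1.42% and 1.47% in KO, and those of mt-Nd1, mt-Nd4, mt-Nd5, mt-Co3 and mt-Cytb were likewise lower in KO without overlap. These shares do not depend on how the library is scaled to nuclear genes, but a rise in the share of mt-Co1 lowers the shares of the others. Among the reads of the other 9 members, mt-Nd6 stayed lower in KO, at 7.17% and 11.8% in WT against 4.602% and 6.98% in KO, although KO2 was close to WT1. On that base mt-Nd1 stood at 20% and 20.4% in WT against 25.5% and 24.9% in KO, and mt-Nd2 at 8.23% and 8.56% in WT against 12.6% and 13.0% in KO, both without overlap, as was the share of mt-Atp6, whose reads are uncertain. The shares of mt-Nd4, mt-Nd5, mt-Cytb, mt-Co2 and mt-Co3 on that base overlapped between the groups. The 10 shares are not separate findings, and no test was made on them. They are shares of counted reads and not of transcripts. Reads of mt-Co2, mt-Co3 and mt-Atp6, and some of mt-Nd4 and mt-Co1, fit a nuclear copy as well, and how these were counted is not given.

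**Figure D3:**
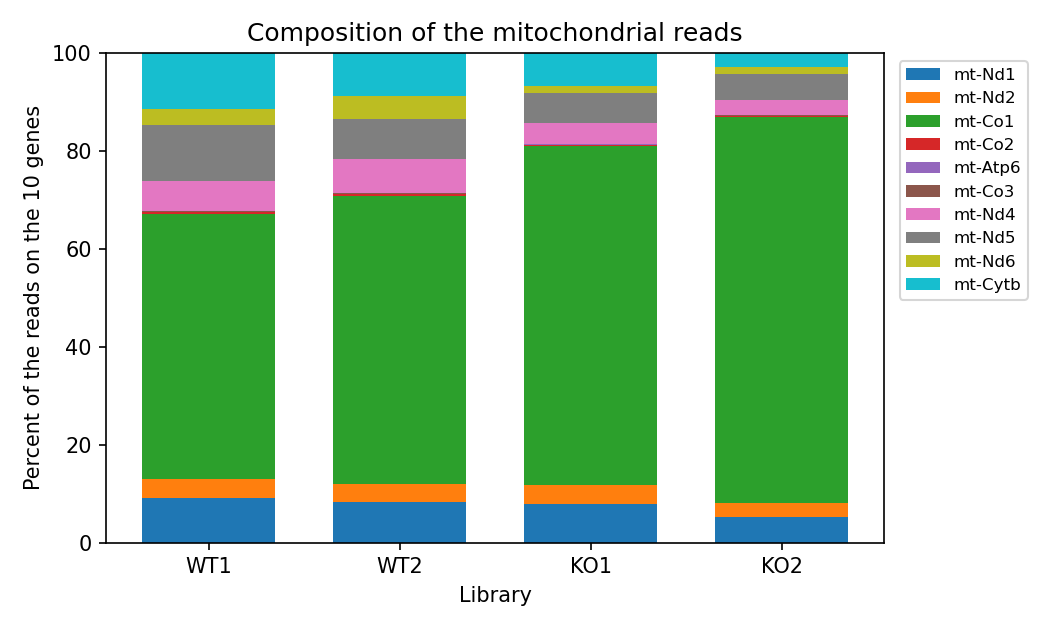
Stacked bars of the reads of each member as a percent of the reads of all 10 members, by library. mt-Co1 holds 54.3% and 59.0% in WT1 and WT2 and 69.2% and 78.9% in KO1 and KO2, and mt-Nd6 falls from 3.28% and 4.83% to 1.42% and 1.47%.

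Per length, the order of levels was alike at the top and the bottom in both groups. mt-Co1 stood first, at 4783 to 5377 FPKM in WT and 8636 to 8788 FPKM in KO, well clear of the next gene. mt-Nd1 followed at 1096 to 1461 FPKM in WT and 927 to 1612 FPKM in KO, then mt-Cytb at 955 to 1536 FPKM in WT and 420 to 1168 FPKM in KO, and these neighbours overlapped in both groups. mt-Nd6 was the fourth in WT at 967 to 1165 FPKM, overlapping mt-Cytb and lying above mt-Nd5 at 557 to 961 FPKM. In KO mt-Nd6 was at 479 to 536 FPKM, overlapping mt-Nd2, mt-Nd5 and mt-Nd4, and no neighbours from the second to the seventh place could be separated. The last 3 places fell to mt-Co2, mt-Co3 and mt-Atp6 in both groups, the genes with near-complete nuclear copies. FPKM divides by the full gene length, so the levels of mt-Nd4 and mt-Co1, with 59.15% and 23.64% of windows shared, are also uncertain beside those of the other genes.

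The tables list 27 further genes of the mitochondrial genome, 10 of which passed the filter, and 3 of these were called higher and 3 lower. The remaining 17 reached at most 16 reads in any library, and 8 of them had none. tRNA genes are shorter than the reads, so a read over one of them comes from a longer RNA or from part of the read, and their counts are low. mt-Rnr2, the large ribosomal RNA of the organelle, held 4519 and 7451 reads in WT and 1699 and 1459 reads in KO. KO lay far below WT, with a log2 fold change of -1.90 (SE 0.25, edgeR adjusted p = 0.00334) that held without each library in turn. mt-Rnr1, the small ribosomal RNA, held 3821 and 4515 reads in WT and 1732 and 3641 reads in KO, with a log2 fold change of -0.66 (edgeR adjusted p = 0.137). It passed without WT1 (adjusted p = 0.03), without WT2 (adjusted p = 0.0399) and with no filter on low counts (adjusted p = 0.0198). rRNA together took 0.0526% and 0.0722% of reads in WT and 0.0211% and 0.0301% in KO. These small shares depend on how rRNA was removed or mRNA enriched in each library, which is not given in the sources used here, and its part in the difference was not tested.

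The 3 called higher were tRNA genes that lie side by side between mt-Nd4 and mt-Nd5 on the plus strand (chrMT:11546-11741). mt-Th, the histidine tRNA, held 24 and 32 reads in WT and 85 and 103 in KO, with a log2 fold change of 1.74 (SE 0.41, edgeR adjusted p = 0.0227). mt-Ts2, a serine tRNA, held 8 and 13 reads in WT and 48 and 43 in KO (2.11, SE 0.52, adjusted p = 0.0266), and mt-Tl2, a leucine tRNA, held 46 and 91 reads in WT and 151 and 181 in KO (1.29, SE 0.38, adjusted p = 0.0486). All 3 rose while their neighbours mt-Nd4 and mt-Nd5 did not pass the test at -0.41 and -0.39. The 3 calls were lost without KO1 (adjusted p = 0.152 to 0.227) and without KO2 (adjusted p = 0.111 to 0.243), and that of mt-Tl2 also without WT1 (adjusted p = 0.0588). The call of mt-Tl2 passed in 8 of 11 other settings and was lost with upper-quartile scaling (adjusted p = 0.0533), with library size only (adjusted p = 0.0699) and with at least 10 reads in every library (adjusted p = 0.05003). The sequences are shown because the 3 tRNAs are consecutive and each is shorter than a read.
mt-Th: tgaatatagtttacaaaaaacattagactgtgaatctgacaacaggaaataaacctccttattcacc
mt-Ts2: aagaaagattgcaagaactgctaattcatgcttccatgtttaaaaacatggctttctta
mt-Tl2: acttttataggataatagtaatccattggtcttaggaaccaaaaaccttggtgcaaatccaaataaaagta

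The 3 called lower were mt-Rnr2 and 2 tRNA genes on the minus strand just before mt-Co1. mt-Tc, the cysteine tRNA (chrMT:5192-5257), held 163 and 276 reads in WT and 58 and 77 in KO, with a log2 fold change of -1.69 (SE 0.35, edgeR adjusted p = 0.0152). mt-Tn, the asparagine tRNA (chrMT:5089-5159), held 107 and 160 reads in WT and 37 and 50 in KO, with a log2 fold change of -1.61 (SE 0.38, edgeR adjusted p = 0.0237). Both calls were lost without KO1 (adjusted p = 0.125 and 0.204) and without KO2 (adjusted p = 0.0796 and 0.128). Of the genes annotated on the minus strand, mt-Nd6, mt-Tc and mt-Tn were called lower. mt-Tp, the proline tRNA on the same strand, stood at 317 and 345 reads in WT and 547 and 452 in KO (0.60, edgeR adjusted p = 0.107). Whether counting used the strand of the read is not given in the sources used here, so the reads of these genes cannot be assigned to a strand.
mt-Tc: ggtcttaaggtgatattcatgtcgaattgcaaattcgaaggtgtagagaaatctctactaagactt
mt-Tn: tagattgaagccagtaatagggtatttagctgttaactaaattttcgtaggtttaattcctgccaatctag

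Of the remaining coding genes, mt-Nd3 held 13 and 25 reads in WT and 54 and 51 in KO (log2 fold change 1.48, edgeR adjusted p = 0.068), and passed in 6 of 12 other settings and without WT2 (adjusted p = 0.0165), and mt-Nd4l held 59 and 16 reads in WT and 60 and 24 in KO (0.14, adjusted p = 0.914). mt-Atp8, at 3 to 8 reads, was below the filter.

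**Figure D4:**
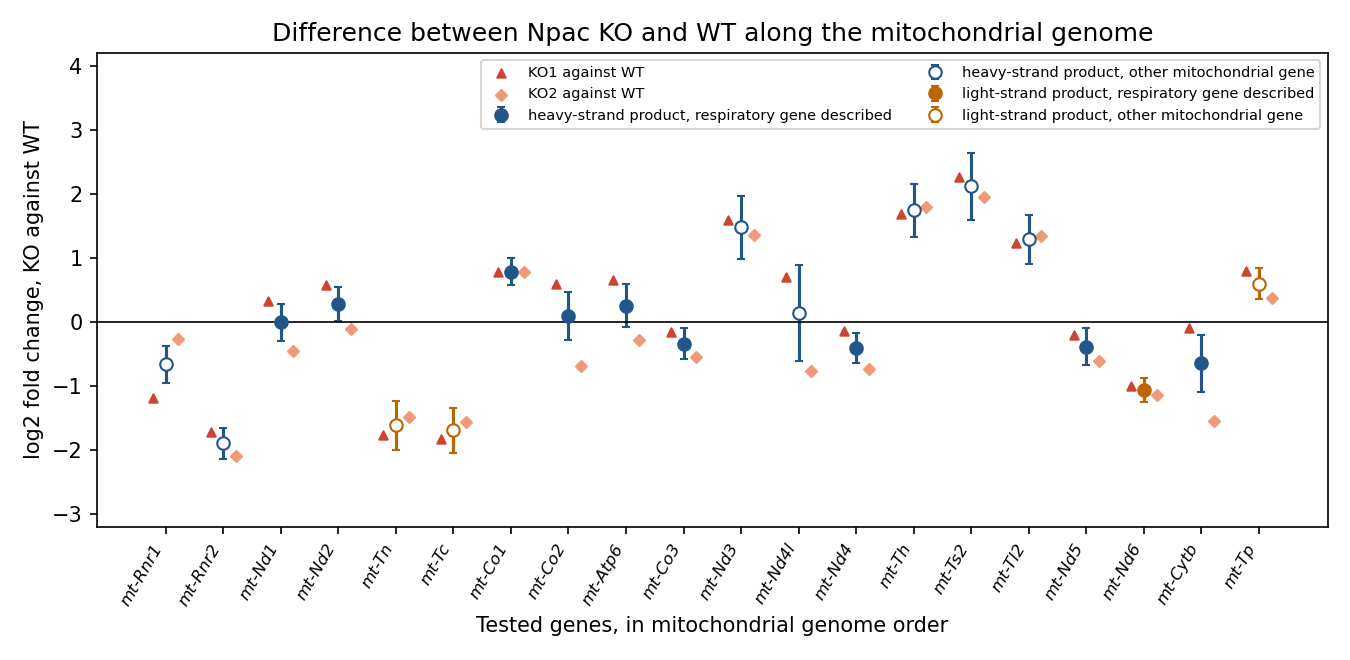
Log2 fold change of KO against WT (circles, with the standard error as bars, coloured by strand and filled for the 10 members) for the genes of the mitochondrial genome that passed the filter, in genome order, with KO1 and KO2 against WT as small points. mt-Rnr2, mt-Tn, mt-Tc and mt-Nd6 lie below 0, and mt-Co1 and the cluster of mt-Th, mt-Ts2 and mt-Tl2 lie above it. The error bars of mt-Nd1, mt-Co2, mt-Atp6 and mt-Nd4l span 0.

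The nuclear copies themselves had reads in every library, between 40 and 1087 per gene. The copy of mt-Nd3, Gm28438, stood apart from the other 6, with 216 and 321 reads in WT and 794 and 1087 reads in KO. KO lay above WT by a log2 fold change of 1.81 (SE 0.23, edgeR adjusted p = 0.0033), and the sum of mt-Nd3 and Gm28438 gave 1.79 (adjusted p = 0.00332). mt-Nd3 and this copy differ only at T3C, counted from 1 at the first base of mt-Nd3, shown in capitals in their first 61 bases.
mt-Nd3: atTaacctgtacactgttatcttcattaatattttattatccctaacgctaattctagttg
Gm28438: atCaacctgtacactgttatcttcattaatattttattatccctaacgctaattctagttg
The base that tells them apart is the third of the gene, so nearly every read over mt-Nd3, taken singly, fits both. How the mates of paired reads were used is not given in the sources used here. The 2 genes therefore cannot be safely told apart in these counts. The copies of the members were not called by edgeR with all libraries: Gm29216 (of mt-Co1) at 0.67 with an adjusted p of 0.110 (0.0136 without WT2), Gm28661 (of mt-Co2) at -0.48, Gm28437 (of mt-Co3) at -0.39 (adjusted p = 0.0461 without WT1), Gm10925 (of mt-Atp6) at 0.38 and Gm28439 (of mt-Nd4) at 0.0015. The copy of mt-Nd4l, Gm10222, stood at 53 and 44 reads in WT and 118 and 105 in KO (1.19, edgeR adjusted p = 0.066). Gm10222 passed without WT1 (adjusted p = 0.0208) and in 4 of 10 other settings, and Gm29216 in 2 of 10. A further 14 annotated matches of lower identity held at most 61 reads, the highest being Gm13340, a copy of mt-Co1.

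The nuclear genes that serve this genome were counted by list. In 12 lists, 248 genes were tested, and 36 were called higher and 10 lower, where all genes gave 11% and 10.7%. Their median log2 fold change was 0.15. The counts rested on the libraries used: 59 higher and 21 lower without WT2, 23 lower without WT1, 9 higher and 1 lower without KO1, and 10 higher and 3 lower without KO2. Of the higher calls, 17 lay on chromosomes 8 and 11. On these chromosomes 17 of 40 list genes were higher (42.5%) and 26.5% of all 2434 nuclear genes tested, and elsewhere 19 of 208 list genes (9.13%) and 8.60% of 15703. Whether these chromosomes differ in copy number between the lines was not tested.

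For transcription of the mitochondrial genome, 2 of 11 genes were called higher and none (0) lower, with a median of -0.07. Polrmt, the polymerase, stood at 67.4 and 68.5 CPM in WT and 68.1 and 71.1 CPM in KO (log2 fold change 0.03, edgeR adjusted p = 0.909). Tfb2m, which opens the promoter, stood at 22.9 and 15.7 CPM in WT and 19.6 and 15.9 CPM in KO (-0.12, adjusted p = 0.789). Tfam, which binds and packages the DNA, stood at 114 and 112 CPM in WT and 169 and 166 CPM in KO, clearly apart, but its change of 1.48-fold stayed under the limit for a call (0.57, adjusted p = 0.0486). Tefm, the elongation factor, stood at 15.8 and 14.6 CPM in WT and 61.2 and 38.2 CPM in KO, and was called higher (1.71, SE 0.27, edgeR adjusted p = 0.00641). Tefm is on chromosome 11, as is Mrpl12, a ribosomal protein also known to bind Polrmt, the other gene called (1.18, adjusted p = 0.00928).

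Of 19 genes of mitochondrial DNA maintenance, 3 were called higher and 3 lower, with a median of 0.13. The largest rises were in Lig3, the ligase of the organelle (chromosome 11, log2 fold change 1.54, edgeR adjusted p = 0.00523), and Dna2, a nuclease and helicase (1.12, adjusted p = 0.00682). The largest falls were in Slc25a33 (-1.13, adjusted p = 0.0115) and Slc25a36 (-0.91, adjusted p = 0.037), which carry pyrimidine nucleotides into the organelle.

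For processing and stability of mitochondrial RNA, 8 of 38 genes were called higher and 3 lower, with a median of 0.20. Grsf1, which binds mitochondrial RNA in granules and is known for its part with mt-Nd6 and other light-strand RNA, stood at 58.6 and 59.2 CPM in WT and at 210 and 173 CPM in KO. Both KO libraries were far above WT, with a log2 fold change of 1.70 (SE 0.19, edgeR adjusted p = 0.00193). Gtpbp3, a tRNA modifier, was also higher (chromosome 8, 1.15, adjusted p = 0.0104), and the tRNA methyltransferase Nsun3 (-1.41, adjusted p = 0.0188) and Angel2, a phosphatase of RNA ends (-1.24, adjusted p = 0.0113), were lower. Lrpprc and Slirp, which together hold mitochondrial mRNAs stable, did not pass the test. Lrpprc stood at 171 and 165 CPM in WT and 152 and 142 CPM in KO (-0.19, edgeR adjusted p = 0.445), and Slirp at 4.38 and 6.68 CPM in WT and 5.52 and 7.27 CPM in KO (0.21, adjusted p = 0.732).

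Of 18 translation factors, 3 were called higher and none (0) lower, with a median of 0.29. Tufm, the elongation factor that brings tRNAs to the ribosome, rose by a log2 fold change of 1.32 (edgeR adjusted p = 0.00767), and Mrpl58, a release factor of the ribosome, by 1.02 (chromosome 11, adjusted p = 0.0157). Of 11 regulators of mitochondrial biogenesis, Pprc1 was called higher (1.19, edgeR adjusted p = 0.00869) and Yy1 lower (-0.63, adjusted p = 0.04), and the other 9 did not pass. Of 19 genes of mitochondrial mass and membrane, 5 were called higher and 1 lower, with a median of 0.29.

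Of the nuclear subunits of the respiratory complexes, 7 of 84 were called higher and 1 lower, where all genes gave 11% and 10.7%. Their median log2 fold change was 0.13, beside 0.0015 over all genes tested. In complex I, 2 of 37 were higher and none (0) lower, namely Ndufs5 (log2 fold change 2.47, edgeR adjusted p = 0.0023) and Ndufb7 (chromosome 8, 1.09, adjusted p = 0.0211), both accessory subunits. In complex II, which has no mitochondrial subunit, 0 of 4 were called in edgeR. In complex III, 1 of 9 was called, Uqcr10 (chromosome 11, 0.79, adjusted p = 0.0335). In complex IV, 2 of 16 were higher, Cox7a2 (0.89, adjusted p = 0.0219) and Cox7c (0.85, adjusted p = 0.0237), and 1 was lower, the muscle form Cox6a2 (-4.69, adjusted p = 0.00406) at 54 and 108 reads in WT and 2 and 4 in KO. In the ATP synthase, 2 of 18 were higher, Atp5g1 (chromosome 11, 1.42, adjusted p = 0.00349) and Atp5g2 (0.75, adjusted p = 0.0313), which encode the same ring subunit. Of 48 assembly factors, 7 were higher and 1 lower, among them Bcs1l of complex III (1.69, edgeR adjusted p = 0.00467), Coa6 of complex IV (chromosome 8, 1.49, adjusted p = 0.0112) and, lower, Cmc1 of complex IV (-1.38, adjusted p = 0.00772).

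Outside the mitochondrial genome, the protein-coding genes whose pattern over the 4 libraries lay nearest to the members' mean were Nrde2, Fis1, Fndc10, Tfap4 and Iars2, at distances of 0.0447 to 0.0902 (Euclidean, log2 CPM centred on each gene's mean). With 4 libraries many genes can come this close, and the mean pattern stood at 0.23 and -0.048 in the WT libraries and at 0.24 and -0.42 in the KO libraries, which is a difference between libraries of 1 genotype rather than between genotypes.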

How the data were processed

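RNA was sequenced as paired-end reads of 150 bases. The authors deposited raw read counts per gene, which the submitters' processing notes credit to CASAVA, HISAT2 2.0.5, featureCounts 1.5.0-p3 and mm10, while the methods name another HISAT version. The strand setting, the treatment of reads with several matches and the RNA enrichment are not given in the sources used here. The authors also deposited FPKM, which are these counts divided by gene length and by 1 factor per library. Of 52036 nuclear genes matched by ID, 2.76% have the GENCODE M21 (GRCm38) start and end in the deposited tables, against all 37 mitochondrial genes, so nuclear coordinates given are those of GENCODE.

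Counts were tested in R 4.3.3 with edgeR 4.0.16 (TMM, filterByExpr, quasi-likelihood test, Benjamini-Hochberg over 18157 genes), which gave a common biological coefficient of variation of 0.235. DESeq2 1.42.0 and limma 3.58.1 (log2 FPKM + 1 or + 0.1) served as alternatives, with other filters, scalings, gene sets, a replicate block and each library left out. The scripts were tested on simulated counts. Matches were searched with blastn 2.17.0+ (identity of at least 80% over 250 bases, and 99% for a near-identical copy) among annotated transcripts only. Members and lists were chosen with earlier results of these data known. Named were all members, the other genes of the mitochondrial genome (those below the filter as a count, mt-Atp8 excepted), their near-identical copies, Glyr1, 6 fixed regulators, and in each list of nuclear genes, except that of mass and membrane, up to 2 rises and 2 falls past both thresholds. The 5 nearest genes by pattern had a mean count of at least 100.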

Additional observations from a re-analysis of the deposited data

How the results depend on the processing

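Over all genes, 1999 higher and 1946 lower calls became 3128 and 2994 with the replicate number as a block, and 642 to 3477 and 606 to 3311 with each library left out. Of the members, 1 higher became 0 with limma on FPKM at either pseudocount (mt-Co1 adjusted p = 0.389 and 0.33) and 0 with any library left out, and 1 lower became 2 with no filter, 2 with the replicate block (mt-Cytb added, -0.78, adjusted p = 0.0165) and 0 to 3 with libraries left out (3 without WT2, 0 without KO2). The list genes, 36 higher and 10 lower, gave 9 to 59 and 1 to 23 with libraries left out, and 16 lower with the block. The share of mitochondrial reads turned from a log2 ratio of 0.37 to -0.39 without mt-Co1, chosen after seeing the data. The fall of mt-Nd6 in composition, -2.61 percentage points, was -6.25 per length. mt-Nd6 passed in all 12 other settings (-1.10 to -0.99, adjusted p up to 0.0376) and in 2 of 4 with a library left out (-1.23 to -0.92). mt-Co1 passed in 10 of 12 (0.75 to 0.86). mt-Nd5 passed without WT2 (-0.73, adjusted p = 0.0213).

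Calls were gained with the replicate block by mt-Rnr1 (-0.73, adjusted p = 0.0186), mt-Nd3 (adjusted p = 0.0269), Gm10222 (adjusted p = 0.0182) and Gm29216 (adjusted p = 0.0463). On FPKM with limma, mt-Nd3 (adjusted p = 0.0213 and 0.0202) and Gm10222 (0.0185 and 0.0177) passed at pseudocounts 1 and 0.1, and Gm29216 at 1 (0.0499). With no filter, mt-Nd3 (0.0365) and Gm10222 (0.0392) passed, as did mt-Nd3 with at least 10 reads in every library (0.044).

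The sign of values near 0 turned as follows. mt-Nd1 gave 0.0025 with no filter, 0.029 with upper-quartile scaling, 0.065 scaled outside chromosomes 8 and 11, and -0.46 to 0.33 with libraries left out. mt-Co2 gave -0.050 and -0.053 on FPKM at pseudocounts 1 and 0.1, -0.042 with the block, -0.13 summed with its copy, and -0.71 to 0.59 with libraries left out. Gm28439 gave -0.0038 with DESeq2, -0.014 with library size only, and -0.45 to 0.60 with libraries left out. With libraries left out, mt-Nd2 ranged from -0.13 to 0.58, mt-Nd5 from -0.73 to 0.024, mt-Atp6 from -0.31 to 0.65, mt-Nd4l from -0.78 to 1.47 and Gm10925 from -0.23 to 0.80. The cause was not tested for any of these.

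Replicate numbers pair libraries only by name: deviations of WT and KO libraries with the same number correlated at 0.349 over 18157 genes, with 2 pairs only, and are not used as pairs. Scaling outside chromosomes 8 and 11 moved the median of all genes to 0.07. Low counts limit what can be said of the tRNA genes, mt-Nd3, mt-Nd4l and mt-Atp8, and the cause of the low counts was not tested.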
